A study of Mus musculus with 6 samples.

Results

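The genes followed here are 10 of the 22558 in the deposited table, picked by symbol: Fos, Fosb and Fosl2, Jun, Junb and Jund, Atf3, Egr1, Btg2 and Cyr61. They are subunits of the AP-1 transcription factor, the related factor Atf3, and 3 further genes of the immediate early class. The data are RNA-seq of whole eyes from mice of the C57BL/6 strain at postnatal day 21, with 3 wild type libraries and 3 libraries from mice with both copies of BC027072 knocked out. BC027072 is the mouse counterpart of human PCARE, a gene of the photoreceptor cilium in which mutations cause retinitis pigmentosa. Apart from the knockout the labels name no treatment, allele or transgene in either group, and they do not say how the allele was made, whether the groups were littermates, or whether a sample is 1 animal. The p-values therefore measure the spread between these samples.

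Immediate early genes are switched on within minutes by growth factors, light, synaptic activity or injury, without the need for new protein. AP-1 is a dimer of a Fos protein with a Jun protein, held together by a leucine zipper, and Jun proteins can also pair with themselves or with ATF factors. In the retina, Fos is known to be induced by light and by photoreceptor damage, and Atf3 is a well known early marker of stressed or injured neurons. In whole-eye RNA, fewer cells of a type and less RNA per cell cannot be told apart.

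The libraries held 5695530 to 21815950 fragments. BC027072 had 2251 to 5854 fragments in wild type and 2 or 3 in each knockout library, so the labels held for that gene. Fragments of Xist, which is made from an inactive X, numbered 5905 to 17749 in the 3 wild type libraries and knockout replicate 2, and 11 and 18 in knockout replicates 1 and 3. Those last libraries held 2047 and 2957 fragments of 4 Y-linked genes and the others 1 to 7, so both Y-positive libraries were knockouts. Each member's fold change is therefore also given with sex as a term of the fit, where knockout replicate 2 alone carries the comparison. Several marker lists of other tissues moved with genotype, counted below as genes past an edgeR adjusted p of 0.05. Over all 14919 genes tested, 6.24% passed that test in either direction. CPM are fragment counts scaled to the library total over the tested genes, after that total was multiplied by its TMM factor. Summed over each list, rod genes were at 23345 to 24149 CPM in wild type and 14469 to 16602 in knockout (4 of 5 fell, 1 rose). Microglial genes were at 126 to 138 and 170.2 to 196 CPM (5 of 7 rose). Endothelial genes were at 195 to 215 and 267 to 275 CPM (2 of 5 rose). Red blood cell genes were at 186 to 255 and 54.8 to 94.9 CPM (4 of 4 tested fell). Genes of the corneal epithelium were at 4276 to 4817 and 5019 to 5321 CPM (2 of 7 rose), and skeletal muscle genes at 1905 to 2823 and 2587 to 2992 CPM (2 of 6 rose). Of 13 circadian clock genes 4 fell (1365 to 1394 and 1247 to 1280.4 CPM in sum). Of Mueller glia genes 1 of 5 fell (4225 to 4385 and 3892 to 4131 CPM), and of pigment epithelium genes 1 rose and 1 fell of 5 tested (1689.6 to 1739.9 and 1909 to 1935 CPM). No lens gene of 6 passed (51872 to 61986 and 52314 to 54697 CPM) and no fibroblast gene of 6 (6683 to 13148 and 6761 to 8144 CPM). No marker of these lists was at 0 in every library. With sex as a term knockout replicate 2 alone carries the knockout side, and fewer genes passed over the whole table as well. The passing genes of each list are therefore not counted for that fit. The part of sex, clock or cell makeup in the results below was not tested beyond the fit with sex.

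The stretches upstream of 5 of the genes are shown because cAMP response elements, which ATF, CREB and Jun dimers bind, are known inputs to immediate early promoters, and these 5 include genes that rose, fell and did not pass the test. They are the 250 bases before the RefSeq start site in GRCm38.p6, 5′ to 3′ along the gene. Capitals mark the core TGACG (or its reverse complement CGTCA), the Jun-type site TGACATCA and the AP-1 site TGANTCA, searched on both strands, with overlapping matches joined:
Atf3 (chr1:191183334-191183583, minus strand): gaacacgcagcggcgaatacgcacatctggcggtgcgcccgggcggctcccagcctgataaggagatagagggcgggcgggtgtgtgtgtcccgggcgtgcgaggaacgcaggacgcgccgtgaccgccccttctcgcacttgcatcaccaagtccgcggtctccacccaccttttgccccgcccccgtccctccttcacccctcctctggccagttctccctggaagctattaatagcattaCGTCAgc
Junb (chr8:84978749-84978998, minus strand): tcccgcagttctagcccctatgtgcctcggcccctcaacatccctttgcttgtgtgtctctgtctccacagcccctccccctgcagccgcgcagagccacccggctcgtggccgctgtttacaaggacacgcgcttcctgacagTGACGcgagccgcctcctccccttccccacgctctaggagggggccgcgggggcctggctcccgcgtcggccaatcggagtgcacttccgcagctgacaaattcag
Fosl2 (chr5:32136222-32136471, plus strand): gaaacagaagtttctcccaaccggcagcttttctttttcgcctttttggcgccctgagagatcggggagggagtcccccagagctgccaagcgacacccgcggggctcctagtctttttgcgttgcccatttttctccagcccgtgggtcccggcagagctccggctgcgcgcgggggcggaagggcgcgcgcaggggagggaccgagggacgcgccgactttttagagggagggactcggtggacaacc
Fos (chr12:85473640-85473889, plus strand): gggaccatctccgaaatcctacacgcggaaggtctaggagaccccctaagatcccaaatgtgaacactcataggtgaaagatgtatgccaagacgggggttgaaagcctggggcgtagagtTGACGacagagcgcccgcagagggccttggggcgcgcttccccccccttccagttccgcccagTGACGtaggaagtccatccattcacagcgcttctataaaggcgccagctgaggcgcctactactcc
Btg2 (chr1:134079156-134079405, minus strand): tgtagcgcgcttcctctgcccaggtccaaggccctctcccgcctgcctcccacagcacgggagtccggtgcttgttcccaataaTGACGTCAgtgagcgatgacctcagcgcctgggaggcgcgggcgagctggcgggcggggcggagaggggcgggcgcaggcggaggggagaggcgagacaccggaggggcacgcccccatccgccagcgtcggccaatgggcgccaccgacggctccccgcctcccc

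The core TGACG was present in 6 of the 9 members whose upstream sequence was read (Fos, Fosb, Junb, Atf3, Btg2 and Cyr61) and in 17.8% of 32841 upstream stretches of the same length from RefSeq. Its copy nearest the start site lies 7 to 3 bases upstream in Atf3, on the reverse strand, and 66 to 62 bases upstream in Fos. Btg2 alone of the 9 held the full element TGACGTCA, which contains the core on each strand and occurs in 1.55% of all stretches. Jun held the Jun-type site, 45 to 38 bases upstream (2.93% of all stretches). None of the 9 had the AP-1 site in this window (6.75% of all) or the STAT site TTCNNNGAA (7.02%). Nor did any of the 9 have a CArG box, the element of serum response factor (1.47%). Egr1 was the member not read, so these counts do not cover it. The TATA box TATAAA was found in Fos and Cyr61 (12.4%). A match is a run of letters and not a shown binding site, and among the members with the core are genes that rose, a gene that fell and a gene that did not pass.

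Of the 10 members, 5 were higher in the knockout (Atf3, Fosb, Cyr61, Junb and Fosl2), 1 was lower (Btg2), and Egr1, Jun, Jund and Fos did not pass edgeR's quasi-likelihood test at a Benjamini-Hochberg adjusted p of 0.05. Over all 14919 genes tested, 2.89% were higher and 3.35% lower. The members were picked with these results known, so the higher share among them is a description. Their median log2 fold change was 0.39, against 0.00 over all genes, and 8 of 10 values were above 0, against 50.6% of all genes. In CPM the 3 knockout values all lay on one side of the 3 wild type values for 6 of the 10 members. This held for 23.3% of all genes tested. The 6 are the members that passed, and the test reads the same counts, so the separation is no independent support. In the authors' FPKM only Atf3 and Fosb were apart among these 6, while Junb, Fosl2, Cyr61 and Btg2 overlapped between the groups. The share of all genes that are apart in FPKM was not counted, so these FPKM overlaps have no background to be read against. In DESeq2 4 were higher and 1 lower, where 4.76% of all genes passed. With sex as a term Atf3 was the one member that passed, and 1.58% of all genes did.

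**Figure D1:**
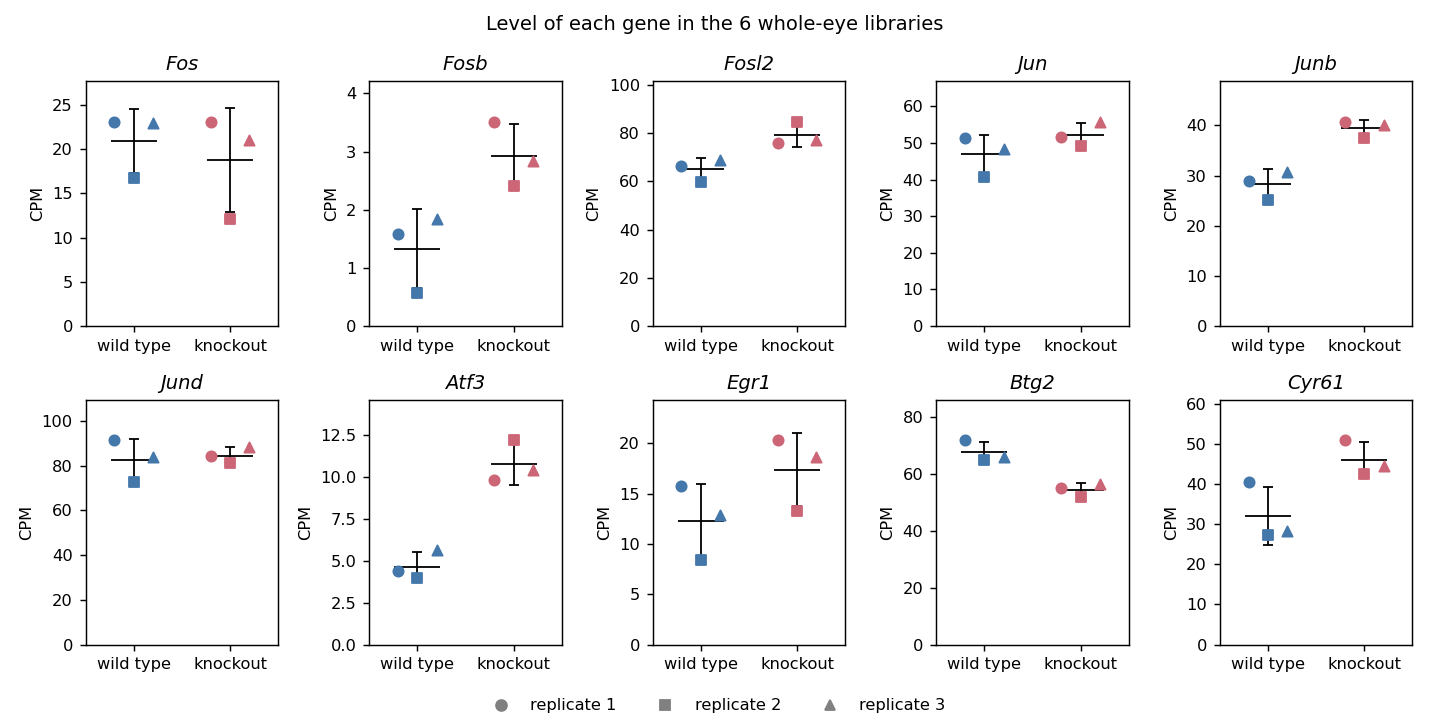
Level of each of the 10 genes in CPM (linear axis from 0) in the 3 wild type (blue) and 3 knockout (red) libraries, with the marker shape giving the replicate number and black bars the mean and SD. The groups are apart for Atf3, Fosb, Fosl2, Junb, Cyr61 and Btg2 and overlap for Fos, Jun, Jund and Egr1.

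Atf3, a basic leucine zipper factor of the ATF/CREB family that is induced by many kinds of cell stress (NM_007498, chromosome 1, 192994176 to 193007212 in mm9), was at 4.37, 3.95 and 5.65 CPM in wild type replicates 1 to 3 and at 9.83, 12.2 and 10.4 CPM in the knockouts. Every knockout library lay above every wild type library, and the lowest knockout value was still well above the highest wild type value. The group means were 4.66 ± 0.885 and 10.8 ± 1.25 CPM (SD, n = 3 each), a 2.36-fold difference (log2 fold change 1.24 ± 0.16, SE; edgeR adjusted p = 0.000127). Between 46 and 110 fragments stand behind each value, and the widest 95% Poisson interval, which covers counting error only, ran from 9.55 to 15.4 CPM in knockout replicate 2. The call held with any single library left out (log2 fold change 1.15 to 1.35) and with sex as a term (1.43 ± 0.24, adjusted p = 0.007). Restricted to the 4 Xist-positive libraries, which is the same contrast, it was 1.43 ± 0.25 (adjusted p = 0.0118, with 1.58% of all genes called). That fit has 1 knockout library, which is assumed to vary as the wild types do, so it adds nothing independent. It was lost in limma on log2(FPKM + 1) (0.95, adjusted p = 0.115), a setting in which 0.114% of all genes passed.

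Among the Fos proteins, which need a Jun partner to bind DNA, Fosb and Fosl2 rose and Fos did not pass. Fosb (NM_008036, chromosome 7, 19888045 to 19895394), known for the long-lived splice form that builds up in neurons on repeated stimulation, was the scarcest member. Its fragments numbered 34, 8 and 15 in wild type and 30, 14 and 30 in knockout, or 1.58, 0.564 and 1.84 CPM against 3.51, 2.41 and 2.83 CPM. The groups did not overlap, but the counting interval of wild type replicate 3 (1.03 to 3.04 CPM) covered 2 of the 3 knockout values. The means of 1.33 ± 0.675 and 2.92 ± 0.556 CPM gave a log2 fold change of 1.18 ± 0.33 (2.27-fold, edgeR adjusted p = 0.041). That call was lost in DESeq2 (1.17, adjusted p = 0.0936), with sex as a term (0.89 ± 0.57, adjusted p = 0.629), and without wild type replicate 2 (0.83, adjusted p = 0.123) or any of knockout replicates 1, 2 and 3 (adjusted p = 0.176, 0.0756 and 0.0988). The deposited table lists 1 Fosb transcript, so the splice forms were not told apart.

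Fosl2 encodes Fra-2, a Fos relative that is made later and lasts longer than Fos and lacks its strong activation domain (NM_008037, chromosome 5, 32438845 to 32460212). It stood at 66.4, 59.7 and 68.9 CPM in wild type and 75.9, 84.7 and 77.1 CPM in knockout. All knockout values were higher, and the highest came from knockout replicate 2. The difference was small and passed (65.0 ± 4.78 to 79.2 ± 4.81 CPM, 1.22-fold, log2 fold change 0.28 ± 0.07, edgeR adjusted p = 0.0246). It no longer passed without wild type replicate 2 (0.23, adjusted p = 0.105), without knockout replicate 2 (0.24, adjusted p = 0.134) or with sex as a term (0.39 ± 0.10, adjusted p = 0.104).

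Fos, the prototype of the class (NM_010234, chromosome 12, 86814851 to 86818219), was at 23.1, 16.7 and 23.0 CPM in wild type and 23.1, 12.1 and 21.1 CPM in knockout. The groups overlapped, and in each the library numbered 2 was the low value. The fitted log2 fold change was −0.11 ± 0.17 (20.9 ± 3.64 and 18.8 ± 5.88 CPM, edgeR adjusted p = 0.803), and its sign turned without knockout replicate 2 (0.08, adjusted p = 0.855). With sex as a term, where that library carries the knockout side, it was −0.79 ± 0.23 (adjusted p = 0.141). Fos and Atf3 thus differed in what knockout replicate 2 showed: it had the lowest Fos value of the 6 libraries and the highest Atf3 value.

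**Figure D2:**
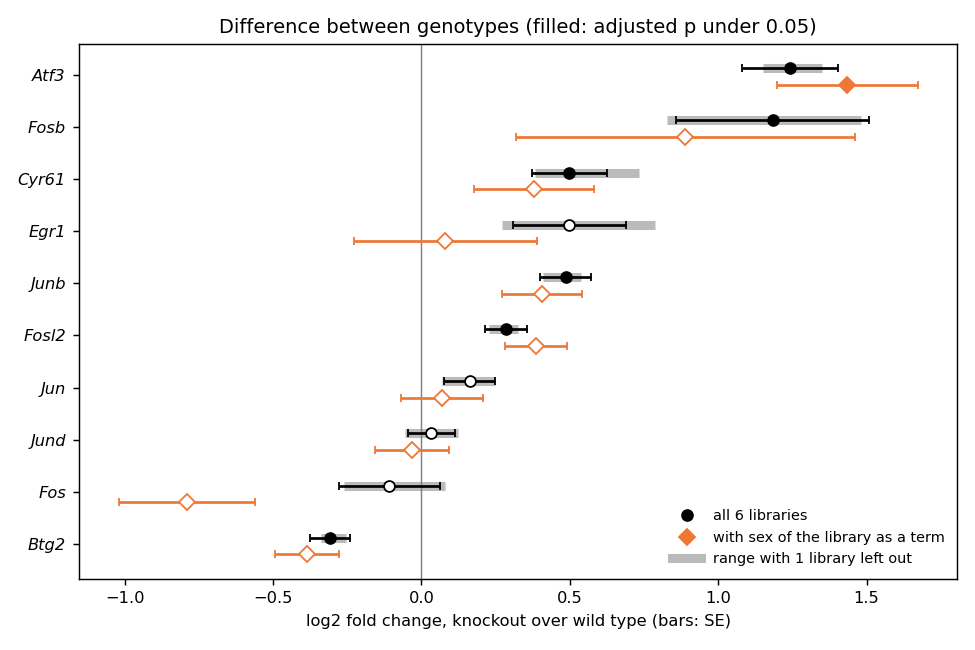
Log2 difference between knockout and wild type for each gene with its SE, from all 6 libraries (black circles) and with sex as a term (orange diamonds), and the range with any single library left out (grey bars). Filled markers are past an adjusted p of 0.05: 6 genes in the first fit and Atf3 alone in the second.

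In the Jun family Junb rose while Jun and Jund did not pass. Junb, which can dampen the activity of c-Jun (NM_008416, chromosome 8, 87500808 to 87502647), was at 29.0, 25.2 and 30.8 CPM in wild type and 40.7, 37.4 and 40.0 CPM in knockout. The ranges were well apart and the spread within each was small. Its mean went from 28.4 ± 2.85 to 39.4 ± 1.77 CPM (1.4-fold, log2 fold change 0.49 ± 0.09, edgeR adjusted p = 0.00214), and the call held with any single library left out (0.41 to 0.54, adjusted p = 0.00341 to 0.0152). With sex as a term the value was 0.41 ± 0.14 (adjusted p = 0.227). Jun, the partner that the kinase JNK activates (NM_010591, chromosome 4, 94715727 to 94718913), was at 51.4, 40.8 and 48.4 CPM in wild type and 51.7, 49.3 and 55.8 CPM in knockout, with overlapping groups (0.16 ± 0.09, edgeR adjusted p = 0.346, and 0.07 ± 0.14 with sex as a term, adjusted p = 0.907). Jund, the subunit that most resting cells already hold (NM_010592, chromosome 8, 73221638 to 73224515), was at 91.3, 72.6 and 84.0 CPM and at 84.3, 81.0 and 88.2 CPM. Its knockout values lay inside the wild type range (0.03 ± 0.08, adjusted p = 0.876), and its small difference changed sign between settings.

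The remaining members are immediate early genes outside AP-1. Cyr61, now Ccn1, encodes a secreted matrix protein that binds integrins (NM_010516, chromosome 3, 145309935 to 145312949). It was at 40.5, 27.4 and 28.4 CPM in wild type and 51.0, 42.5 and 44.7 CPM in knockout. The groups were apart, though wild type replicate 1 came close to the lowest knockout value. The log2 fold change was 0.50 ± 0.13 (32.1 ± 7.31 to 46.1 ± 4.41 CPM, edgeR adjusted p = 0.0257), and the gene passed without wild type replicate 1 alone among the 6 ways of leaving a library out (0.73, adjusted p = 6.38e-05, otherwise adjusted p = 0.051 to 0.141). With sex as a term it was 0.38 ± 0.20 (adjusted p = 0.54).

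Egr1, a zinc finger factor induced through the same serum response pathway as Fos (NM_007913, chromosome 18, 35020861 to 35024610), was at 15.8, 8.39 and 12.9 CPM in wild type and 20.3, 13.3 and 18.6 CPM in knockout. The groups overlapped because wild type replicate 1 lay above knockout replicate 2, and the libraries numbered 2 were again the lowest. Its log2 fold change of 0.50 ± 0.19 was as large as that of Cyr61 but did not pass (1.41-fold, edgeR adjusted p = 0.152). It passed without wild type replicate 1 (0.79, adjusted p = 0.0105) and was 0.08 ± 0.31 with sex as a term (adjusted p = 0.958).

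Btg2, an antiproliferative gene that p53 and growth factors induce (NM_007570, chromosome 1, 135971442 to 135975732), was the member that fell. It was at 71.8, 65.0 and 65.8 CPM in wild type and 55.1, 51.8 and 56.6 CPM in knockout. Every knockout library lay below every wild type library. The mean went from 67.6 ± 3.72 to 54.5 ± 2.45 CPM (0.808-fold, log2 fold change −0.31 ± 0.07, edgeR adjusted p = 0.0117). It did not pass without knockout replicate 2 (−0.28, adjusted p = 0.0716) or with sex as a term (−0.39 ± 0.11, adjusted p = 0.123).

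Levels per length were read from the authors' FPKM. In wild type Jund was the most abundant member (35.8 ± 4.89 FPKM, SD, n = 3), followed by Junb (26.6 ± 6.68), Cyr61 (18.1 ± 4.62), Btg2 (18.0 ± 3.44) and Jun (16.4 ± 1.79). The ranges of neighbours in that order overlapped. Fos (10.6 ± 1.41 FPKM) and Fosl2 (9.86 ± 1.49) came next with overlapping ranges, below Jun without overlap. Egr1 (4.38 ± 1.31), Atf3 (2.32 ± 0.416) and Fosb (0.380 ± 0.171) were each apart from the member above. In the knockout, Atf3 at 5.44 ± 0.857 FPKM was close to Egr1, whose 3 values of 7.13, 4.74 and 5.75 FPKM overlapped its own of 4.61, 6.32 and 5.37.

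The makeup of each family was then compared per library as the share of each subunit in the summed FPKM. Fos made up 53.9%, 51.5% and 47.7% of the Fos family in wild type and 48.4%, 29.1% and 43.2% in knockout. The knockout shares reached lower but knockout replicate 1 lay inside the wild type range (51.0 ± 3.16% and 40.2 ± 9.97%, p = 0.2 in an exact two-sided permutation test). Fosb was the smallest share, from 1.77 ± 0.638% to 3.69 ± 0.745% with no overlap (exact permutation p = 0.1, the smallest that 3 against 3 libraries can give). Fosl2 held 47.2 ± 3.16% and 56.1 ± 10.2% (exact permutation p = 0.3). Without knockout replicate 2 the difference of knockout minus wild type went from −10.8 to −5.24 percentage points for Fos and from 8.88 to 3.29 for Fosl2. In the Jun family Junb held 33.5 ± 5.13% and 37.6 ± 3.57%, Jund 45.5 ± 2.76% and 41.9 ± 2.43% and Jun 21.0 ± 2.47% and 20.4 ± 1.18% (exact permutation p = 0.2, 0.2 and 0.9). With CPM divided by transcript length the spread in the Jun family was smaller and the groups of Junb and Jund parted: Junb went from 26.2 ± 1.33% to 31.9 ± 0.81% and Jund from 48.8 ± 1.06% to 43.7 ± 0.387%, each with an exact permutation p = 0.1. In the Fos family that scale turned the wild type order, with Fos at 46.4 ± 2.51% and Fosl2 at 52.0 ± 3.14%, and the knockout shares were 38.0 ± 9.05% and 58.7 ± 9.30% (exact permutation p = 0.2 and 0.3). The ratio of FPKM to CPM for Junb ran from 0.632 in wild type replicate 3 to 1.3 in wild type replicate 2, so the FPKM of these libraries differ from their counts by more than length.

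**Figure D3:**
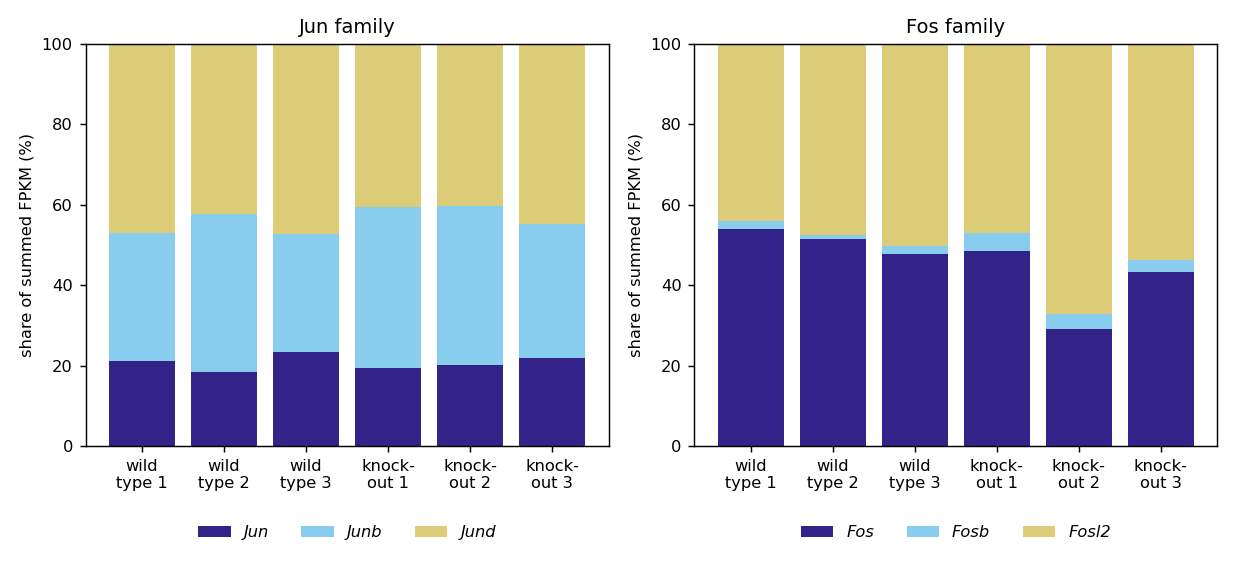
Share of each subunit in the summed FPKM of the Jun family (left) and the Fos family (right), in percent, for each of the 6 libraries. Fosl2 holds the largest share of the Fos family in knockout replicate 2 (67.3%), where Fos falls to 29.1%.

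The members' spread within a genotype was then compared from library to library. Wild type replicate 2 had the lowest CPM of its group for all 10 members, which held for 35.2% of all genes tested. Knockout replicate 2 had the lowest for 8 of 10, against 33.2% of all genes, and both held for 8 of 10, against 13.6%. The exceptions were Atf3 and Fosl2, for which knockout replicate 2 was the highest knockout library. The largest deviations were in Fosb, −0.70 from the wild type mean on the log2 scale in wild type replicate 2, and in Fos, −0.56 from the knockout mean in knockout replicate 2. Across the 6 libraries, deviations from the genotype mean correlated at a Pearson r of 0.99 between Jun and Jund, 0.91 between Egr1 and Jund, 0.87 between Fos and Egr1, 0.91 between Fosl2 and Atf3 and −0.20 between Fos and Atf3. These r values rest on 6 libraries that differ in depth and are descriptions. Knockout replicate 2 was the shallowest library (5695530 fragments) and the only Xist-positive knockout. Of the other immediate early genes tested, 15 of 31 were lowest in wild type replicate 2 and 16 of 31 in knockout replicate 2. Without both libraries numbered 2, a setting chosen after the data were examined, Atf3 (1.07 ± 0.19, edgeR adjusted p = 0.017) and Junb (0.44 ± 0.09, adjusted p = 0.0318) passed and Fosl2, Fosb, Cyr61 and Btg2 did not, where 2.34% of all genes passed.

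**Figure D4:**
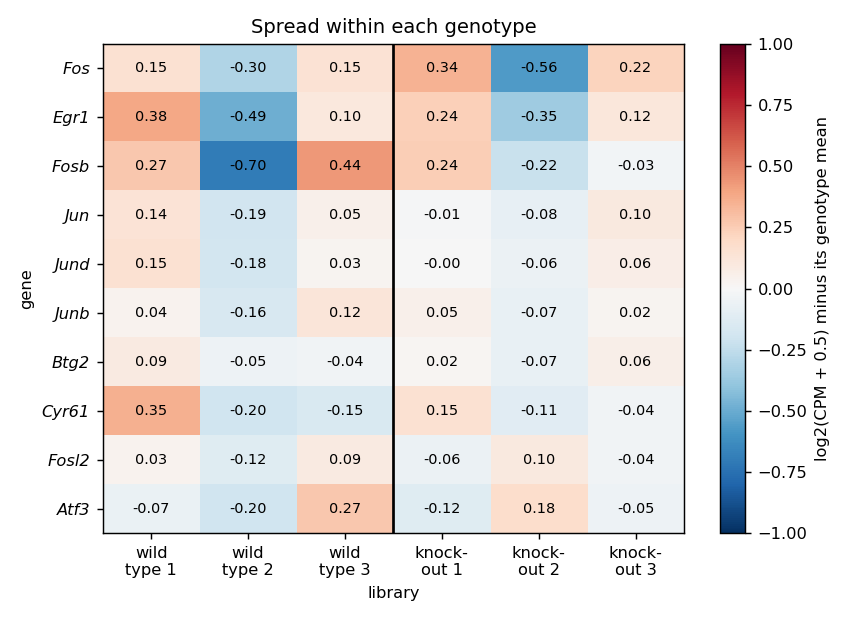
Each library's log2(CPM + 0.5) minus the mean of its genotype, for the 10 genes, with wild type libraries left and knockout libraries right of the black line. Fos, Egr1 and Fosb show the widest spread, with both libraries numbered 2 low, while Fosl2 and Atf3 are above their mean in knockout replicate 2.

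Genes with a pattern most like Fos and Atf3 were looked for among 12660 genes with a mean of at least 5 CPM, by the same correlation of deviations. For Fos they were Tgm2 (0.995), Repin1 (0.994), C2cd2l (0.994), Ints7 (0.993) and Ndufv1 (0.993), and for Atf3 Dda1 (0.996), Prc1 (0.996), Nr2f1 (0.993), Pqbp1 (0.992) and 2500004C02Rik (0.989). With so few libraries, 127 genes came above 0.95 for Fos and 56 for Atf3.

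The authors' deposited table tests the same genotypes on FPKM. It gives q = 0.00162 for Atf3 (5.44 over 2.32 FPKM) and for Cyr61, 0.0108 for Junb and for Egr1, and 0.0236 for Fosl2. Btg2 has q = 0.103 in the authors' deposited table, and Fos, Jun and Jund have q = 0.281, 0.331 and 0.709. Fosb is listed there as not tested. A q under 0.05 was given to 6.95% of the 14403 genes tested in the authors' deposited table. Egr1 and Btg2 are the members on which that table and the edgeR fit part.

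The wider set of immediate early genes held few calls. Of 36 listed, 31 were tested, 2 rose and none fell, or 6.45% against 6.24% of all genes called in either direction, with a median log2 fold change of −0.07. Plk2, a kinase that growth factors and synaptic activity induce, rose from 54.4 ± 1.64 to 66.4 ± 3.16 CPM (0.29 ± 0.07, edgeR adjusted p = 0.0137). Gadd45b, a stress sensor upstream of p38 and JNK, rose from 18.5 ± 3.17 to 25.8 ± 1.72 CPM (0.47 ± 0.12, adjusted p = 0.0244). The log2 fold changes with sex as a term were 0.28 and 0.53 and neither passed (adjusted p = 0.285 for both). Nor did they pass without wild type replicate 2 (adjusted p = 0.0559 and 0.0843), knockout replicate 2 (0.0537 and 0.096) or knockout replicate 3 (0.082 and 0.102). The orphan receptor gene Nr4a1 was at 13.9 ± 2.72 and 11.5 ± 2.21 CPM (edgeR adjusted p = 0.476). The phosphatase gene Dusp1, which switches off MAP kinases, was at 30.9 ± 2.94 and 27.9 ± 5.98 CPM (adjusted p = 0.615). Nr4a3 had the largest difference of the list and did not pass (2.44 ± 0.299 and 1.24 ± 0.682 CPM, −0.87 ± 0.31, adjusted p = 0.118). Its fragments numbered 54, 30 and 22 in wild type and 16, 3 and 14 in knockout. Nr4a1, Dusp1 and Nr4a3 were named after their values were seen. In CPM all knockout libraries lay above wild type for 4 of the 31 and below for 3, against 11.6% and 11.7% of all genes. Egr2, Egr3, Egr4, Npas4 and Dusp2 had too few fragments to be tested.

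Other dimer partners of AP-1 were followed next. Of 12, 8 were tested and none passed with genotype alone in the model, in edgeR, in DESeq2 or in limma on FPKM or CPM. The smallest p values belonged to Atf7, a CREB-like partner of Jun (11.7 ± 0.848 and 15.8 ± 2.82 CPM, log2 fold change 0.39 ± 0.13, edgeR adjusted p = 0.106, 0.0249 without knockout replicate 3 and 0.15 with sex as a term), and Maf (−0.10 ± 0.07, adjusted p = 0.547). The Fos relative Fosl1 and the genes Batf, Batf2 and Batf3 of lymphoid AP-1 were too low to be tested.

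Upstream of AP-1, 2 of 30 kinases and factors rose and none fell, or 6.67% against 6.24% of all genes (median −0.01). Map3k1, the kinase MEKK1 that activates the JNK pathway, rose from 83.6 ± 2.53 to 119 ± 6.35 CPM (0.52 ± 0.06, edgeR adjusted p = 5.12e-05) and also passed with sex as a term (0.44 ± 0.09, adjusted p = 0.0274). Elk3, a partner of serum response factor that can repress Fos, rose from 23.3 ± 1.54 to 30.2 ± 1.18 CPM (0.37 ± 0.09, adjusted p = 0.0143), and did not pass with sex as a term (0.35, adjusted p = 0.339), or without wild type replicate 2 (0.0683) or knockout replicate 3 (0.0768).

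Genes of the ATF4 and CHOP stress response, which is known to induce Atf3, were tested next. Of 14 tested, none rose and 2 fell (median 0.00), or 14.3% against 6.24% of all genes called in either direction. The share rests on 2 genes of a list chosen with earlier results known, so it is a description. Ppp1r15a, which encodes GADD34 and restores translation after stress, fell from 100.4 ± 9.43 to 67.2 ± 5.37 CPM (−0.58 ± 0.08, edgeR adjusted p = 0.000183). Vldlr, a lipoprotein receptor gene that ATF4 induces, fell from 260.3 ± 8.53 to 221 ± 5.14 CPM (−0.24 ± 0.06, adjusted p = 0.0233). Ppp1r15a with sex as a term was at −0.45 (adjusted p = 0.0874) and Vldlr at −0.24 (adjusted p = 0.308), and Vldlr failed in 4 of the 6 fits with a library left out. Atf4 itself was at 193, 198 and 201 CPM in wild type and 193, 193 and 212 CPM in knockout (adjusted p = 0.921) and Ddit3, which encodes CHOP, at 21.0 ± 1.09 and 23.4 ± 1.31 CPM (adjusted p = 0.397), both named after their values were seen.

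Of 25 genes known as AP-1 targets, 17 were tested, 3 rose and none fell (median 0.05). That is 17.6% against 6.24% of all genes called in either direction. The share rests on 3 genes of a list chosen with earlier results known, so it is a description. Cd44, the hyaluronan receptor of reactive glia, rose from 79.3 ± 9.05 to 108 ± 2.10 CPM (0.45 ± 0.08, edgeR adjusted p = 0.00132). Lif, a cytokine that protects photoreceptors, rose from 0.888 ± 0.158 to 2.17 ± 0.414 CPM (1.25 ± 0.29, adjusted p = 0.0142) and did not pass in DESeq2 (adjusted p = 0.095). Its fragments numbered 21, 10 and 8 in wild type and 15, 15 and 23 in knockout. Only the knockout libraries reached the level that the filter on low counts asks for. Lif was thus tested only because that group was high, and its count among the genes that rose is a description. Mt1, a metal-binding stress protein, was at 88.3, 82.9 and 92.8 CPM in wild type and 110.3, 116 and 94.6 CPM in knockout and rose (0.28 ± 0.08, adjusted p = 0.0391), though its value in knockout replicate 3 came close to the wild type range. In FPKM the Mt1 groups overlapped, at 466 ± 186 and 471 ± 149, and limma on log2(FPKM + 1) gave 0.043 (adjusted p = 1.0). The log2 fold changes were 0.48 for Cd44, 1.53 for Lif and 0.40 for Mt1 with sex as a term, and none of the 3 passed (adjusted p = 0.0675, 0.129 and 0.106). Lif also failed without wild type replicate 2 or knockout replicate 2 or 3 (adjusted p = 0.0707, 0.0675 and 0.0633), and Mt1 in the same way without wild type replicate 1 or 2 or knockout replicate 1 or 2 (0.055 to 0.206).

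**Figure D5:**
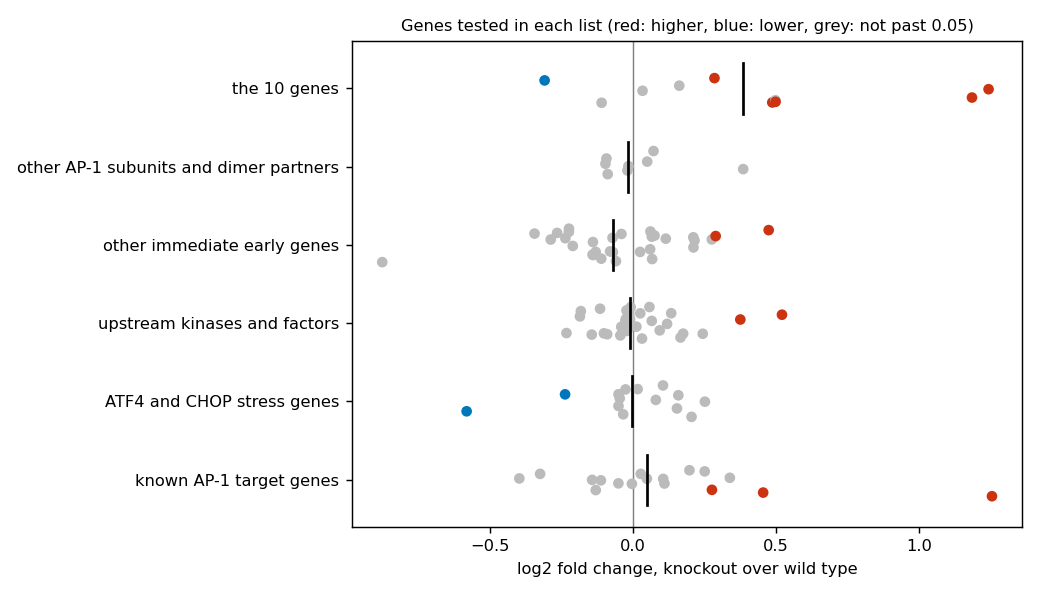
Log2 difference between knockout and wild type for every tested gene of each list, with red for genes that rose, blue for genes that fell and grey for genes not past an adjusted p of 0.05, and a black bar at the list's median. The 10 genes have a median of 0.39 while the 5 other lists lie between −0.07 and 0.05.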

How the data were processed

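Whole-eye total RNA of 6 samples was sequenced, 3 wild type and 3 BC027072 knockout. The tools named in the submitters' processing notes are Cuffdiff 2.2.1, TopHat2 2.0.12 and Cufflinks 2.2.1, and the build is mm9. The deposited estimated counts are unscaled fragments for each gene in each library, per the file headers. Of these 98.5% were whole within 1e-06, and all were rounded here. The authors also deposited FPKM, scaled between libraries by their software, and a comparison of mean FPKM with p-values and q-values. Strand is not given in the sources used here. Each member had 1 transcript in the table with the gene's fragments, so no isoform was fitted apart, and no other gene's locus overlapped a member. Starts are counted from 1.

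Genes with failed estimates (7) were left out. Counts were tested with edgeR 4.0.16 in R 4.3.3. Low genes were removed by filterByExpr (minimum count 10, and 15 in total). That minimum is turned into CPM at the median library size and must be reached in as many libraries as the smaller group holds. Libraries were scaled by TMM. The genotypes were compared by a quasi-likelihood F test, adjusted by Benjamini-Hochberg over 14919 genes (threshold 0.05). SE values are |log2 fold change| / √F. Alternatives used RLE scaling, DESeq2 1.42.0, no filter, limma 3.58.1 on log2(FPKM + 1) and log2(FPKM + 0.1) of genes with a mean of at least 0.1 FPKM, a replicate block, sex, the Xist-positive libraries, and each library left out. Limma on log2(CPM + 0.5) and the fit without both libraries numbered 2 were added after the data were examined. Scripts were tested on simulated data.

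The deposited table numbers libraries from 0 and the titles from 1, so each library was tied to its group and to no single title. Replicates 1 to 3 here follow the table's own order and only name libraries. Members, lists and tests were chosen with earlier results of these data known. Named genes are the members, up to 4 passing genes of each list with the smallest p (or the 2 smallest where none passed), and the 5 genes most like Fos and Atf3. Upstream sequences are from RefSeq (GRCm38.p6), whose start sites may differ from the authors' mm9 annotation, and were read for 9 of 10 members.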

Additional observations from a re-analysis of the deposited data

How the results depend on the processing

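The members called numbered 5 higher and 1 lower. With limma on log2(FPKM + 1) or log2(FPKM + 0.1) they were 0 and 0, and with sex as a term or in the Xist-positive libraries alone 1 and 0, and without both libraries numbered 2 they were 2 and 0. Limma on log2(CPM + 0.5), RLE scaling and no filter gave 5 and 1, and DESeq2 4 and 1. With 1 library left out they were 2 to 6 higher and 0 to 1 lower. The other genes of the pathway, 7 higher and 2 lower, became 0 and 0 with either limma on FPKM, 1 and 0 with sex as a term or in the Xist-positive libraries, 2 and 1 without both libraries numbered 2, and 2 to 7 and 1 to 2 with 1 library left out. Over all genes, 431 were higher and 500 lower. These became 15 and 4 with limma on log2(FPKM + 1), 10 and 5 with log2(FPKM + 0.1), 91 and 144 with sex as a term, 96 and 149 in the Xist-positive libraries and 154 and 196 without both libraries numbered 2. With 1 library left out they were 271 to 425 and 315 to 460. RLE scaling gave 429 and 505 over all genes, no filter 525 and 591 and DESeq2 316 and 431. The fits with fewer libraries have fewer samples. The cause of the loss in limma on FPKM was not tested, and the same tool on CPM gave 421 and 505. Fos turned sign without knockout replicate 2 (0.08, range −0.26 to 0.08 with 1 library left out), and Jund with sex as a term (−0.031), in the Xist-positive libraries (−0.034), without both libraries numbered 2 (−0.026), and without wild type replicate 2 or knockout replicate 3 (range −0.055 to 0.122). Of 352 values of single genes under other settings, 243 kept side and sign, 99 lost the call, 4 gained it and 6 reversed.

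The labels share replicate numbers but the table's libraries cannot be tied to them, and libraries with the same number in the table deviated together only weakly (r = 0.149, 0.0899 and −0.0386), so the numbers were not read as pairs. Wild type replicate 2 correlated best with knockout replicate 3 and not with its own number. The replicate block gave 558 higher and 611 lower genes, and among the members 6 and 1, the added gene being Egr1 (0.49, adjusted p = 0.0135). Atf7, a dimer partner, passed with the block (0.42, adjusted p = 0.0476). The differences in subunit share between genotypes moved by less than the SD pooled over both groups, under CPM per length or with a library left out. Their levels moved more: Junb in wild type went from 33.5 ± 5.13% in FPKM to 26.2 ± 1.33% in CPM per length. Depth limits Fosb most, at 8 to 34 fragments per library.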
